A study of Mus musculus with 23 samples.

Results

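Among 16 single mouse bone marrow-derived mesenchymal stem cells (mMSCs), the study drew 5 color clusters, and 2 of them are compared here gene by gene: a blue cluster of 3 (mMSC5, mMSC6, mMSC16) and a purple cluster of 6 (mMSC2, mMSC3, mMSC7, mMSC10, mMSC12 and mMSC13). These 9 cells are 9 of the 23 libraries of the series, which also holds 5 cells of the HL-1 cardiomyocyte line and a bulk library for either kind of cell. All 16 mMSCs were C57BL/6J bone marrow cells at passages 6 to 11, grown without any treatment on gelatin and captured on a Fluidigm C1 chip. By the study's methods they were purchased and came from male mice 3 months of age. No source used here tells of more than 1 culture, so each cluster is treated as cells of 1 culture, which are not replicates of a condition.

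Both clusters were selected on measured values, since the study formed them from the expression of the same genes in the same cells. Every difference between them is therefore a description, and no test was made. The study regarded the purple cells as quiescent and counted the blue cells, with the green ones, as proliferating. By gene ontology it found cell division genes upregulated in the green cluster and not in the blue. It proposed that blue cells were readying their DNA to divide later. The green cluster of 5 (mMSC1, mMSC4, mMSC8, mMSC11, mMSC14), the other cluster of more than 1 cell, serves as the comparison for cell cycle genes.

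An mMSC is a stromal cell that adheres to plastic and can give rise to bone, cartilage and fat cells in culture. A cell that divides passes through S phase, in which the DNA is copied, and through G2 and mitosis, in which the copies are checked, condensed and pulled apart on a spindle. The genes of DNA copying are switched on by E2F transcription factors late in G1, and those of mitosis later, through factors that bind CCAAT boxes and the cell cycle homology region (CHR). A quiescent cell holds both gene groups low.

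Values are FPKM, fragments scaled by transcript length and by the library's mapped fragments, and differences are those of mean log2 FPKM, blue minus purple, with values under 1 FPKM set to 1. A difference of 1 is 2-fold on this scale. A value of 0 was not read as absence of a transcript. Canx, the endoplasmic reticulum chaperone calnexin, was listed at 0 in mMSC12 and at no less than 809 FPKM in the other single mMSCs. Why it was at 0 there was not tested. Genes are therefore called listed at 0, and no single gene's difference is printed where all cells of a cluster are at 0. Such genes still enter the medians, counts and rankings. The blue cells had 7234 (mMSC5), 7019 (mMSC6) and 6651 (mMSC16) genes at 1 FPKM or more, against 6490 to 7151 with a median of 6782 in the purple cells. FPKM values carry no read number, and the counting error of single values was not estimated. By the study's alignment statistics, mMSC6 had the most and mMSC16 the fewest aligned read pairs of the 9 cells.

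Mesenchymal markers were high in both clusters. Of 16 such genes, 13 to 14 were at 1 FPKM or more in a blue cell and 12 to 15 in a purple cell, and their mean log2 FPKM was 6.27 to 6.57 in blue and 5.88 to 6.66 in purple cells. Thy1, a surface marker often used for these cells, was listed at 0 in all 9. None of 14 endothelial markers was above 0 in a blue cell, and 1 was above 0 in a purple cell, at 10.8 FPKM in mMSC13. Ptprc, the leukocyte antigen CD45, was at 0 in all 9 cells. Of the 20 macrophage and blood cell markers in the table, however, 1 to 2 were at 1 FPKM or more in each of these cells. Macrophage and blood cell markers had a mean log2 FPKM of 0.256 to 0.520 in blue and 0.0816 to 0.632 in purple cells, and cardiomyocyte markers of 0 to 0.657 and 0 to 0.587. The ranges of the clusters overlapped for each of these lists.

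To show which of these stretches each held, the 150 bases before the RefSeq start of 5 cell cycle genes are printed. They run 5′ to 3′ on the gene's strand, which is the minus strand for all 5 (GRCm38.p6, the assembly named mm10 in the study's processing notes). Pola1 lies at chrX:93632156-93632305, Mcm2 at chr6:88898781-88898930, Ccnb1 at chr13:100786487-100786636, Cdk1 at chr10:69352913-69353062 and Cks1b at chr3:89418292-89418441. Capitals mark a CCAAT box, a CHR (TTTGAA) or an E2F-type stretch (TTTCCCGC, TTTCGCGC, TTTGCCGC or TTTGGCGC), read on either strand. These genes were chosen because they did not overlap between the clusters and cover replication and mitosis.
Pola1: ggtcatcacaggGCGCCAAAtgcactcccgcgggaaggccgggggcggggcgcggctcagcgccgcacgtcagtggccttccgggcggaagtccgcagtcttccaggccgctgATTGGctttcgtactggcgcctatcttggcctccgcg
Mcm2: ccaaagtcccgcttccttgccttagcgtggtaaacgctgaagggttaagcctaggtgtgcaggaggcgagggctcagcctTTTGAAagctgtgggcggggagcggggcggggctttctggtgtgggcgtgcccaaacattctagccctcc
Ccnb1: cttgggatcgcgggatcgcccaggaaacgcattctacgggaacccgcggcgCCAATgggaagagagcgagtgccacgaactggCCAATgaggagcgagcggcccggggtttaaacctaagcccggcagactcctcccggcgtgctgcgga
Cdk1: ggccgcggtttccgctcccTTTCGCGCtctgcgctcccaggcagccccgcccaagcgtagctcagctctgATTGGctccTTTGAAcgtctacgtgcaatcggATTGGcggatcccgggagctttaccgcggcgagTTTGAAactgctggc
Cks1b: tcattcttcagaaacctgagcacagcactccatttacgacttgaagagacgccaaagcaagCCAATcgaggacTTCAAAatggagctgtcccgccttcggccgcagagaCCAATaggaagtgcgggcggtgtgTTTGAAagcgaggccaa
Cdk1 held all 3 kinds of stretch, Pola1 an E2F-type stretch and a CCAAT box, Mcm2 a CHR only, Ccnb1 CCAAT boxes only, and Cks1b both a CHR and a CCAAT box. Other spellings of these sites were not searched for, so an unmarked kind is not shown to be absent.

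Blue and purple cells differed by 2-fold or more at many genes, in both directions. Of 23284 genes in the table, 759 with symbols starting Mir or Snor were left out, and 8525 of the other 22525 were at 1 FPKM or more in at least 3 of the 9 cells. At least 2-fold higher in blue were 1381 genes (16.2% of those that passed), and at least 2-fold lower were 1299 (15.2%), with a median difference over all genes of -0.00091. The split between higher and lower depended on the scaling. Higher genes were 51.5% of the called genes on the deposited values and 20.2% (652 higher, 2581 lower) when each library was rescaled to the same sum of FPKM, which moved the median of all genes to -0.56. Mir and Snor symbols take an uneven share of that sum, since they came to 508867, 212500 and 1454490 FPKM in mMSC5, mMSC6 and mMSC16 against 29483 to 165534 in purple cells, beside 600757 to 681234 for the other genes of a cell. Rescaled without them, higher genes were 51.8%. Equal sums lower the blue values, so that small positive differences turn negative (Psmb6 from 0.42 to -0.32, Cdkn1a from 0.59 to -0.15, Tagln from 0.45 to -0.29) while the negative ones of named genes keep their sign. The medians of 15 lists that are above 0 here also turn, the highest being 0.54, and no direction is read from these.

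A stricter comparison asked for no overlap, that is, all 3 blue cells above or below all 6 purple cells. Higher in blue without overlap were 137 genes (1.61%), with a median difference of 2.36, and lower were 80 (0.938%), with a median of -2.16. Some genes separate 3 cells from 6 by the order of the cells alone. The counts were not set against such a number, so neither is read as exceeding it. With equal sums of FPKM the counts turned round, to 43 higher and 285 lower. Low values carried many of these. Of the 137, 95 were listed at 0 in at least 1 purple cell and 25 in all 6, and 42 were above 0 in all 9 cells. Of the 80, 37 were listed at 0 in at least 1 blue cell and 10 in all 3. Leaving out a cell loosens the rule by construction. The higher counts that follow therefore do not measure how much a single cell matters. The 137 higher and 80 lower genes became 320 and 209 without mMSC5, 281 and 184 without mMSC6, and 337 and 179 without mMSC16, and the lower genes 125 without mMSC12 and 128 without mMSC13. At the edge of the rule, the proteasome subunit Psmb6 was inside by a gap of 0.0011 log2 units, and Rab36 and Zgpat were outside by ties at the floor.

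The blue cells were about as alike among themselves as with purple cells. Across the 8525 genes, Pearson's r of log2 FPKM was 0.681 to 0.694 in the 3 pairs of blue cells (median 0.691), 0.657 to 0.718 in the 18 pairs of a blue with a purple cell (median 0.686), and 0.670 to 0.723 in the 15 pairs of purple cells (median 0.690). These are correlations across genes between pairs that share cells. The highest-ranked blue cell also changed from gene to gene. Of the 137 genes, mMSC5 was highest in 44, mMSC6 in 51 and mMSC16 in 42.

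The lists of DNA copying and mitosis held the largest shares of genes higher in blue. Of 64 genes of DNA replication and S phase, 48 passed the filter, 35 of these were at least 2-fold higher in blue (72.9%, against 16.2% of all genes) and 0 were 2-fold lower, with a median difference of 2.02. Of 75 genes of G2/M and mitosis, 42 passed, 27 were higher (64.3%) and 1 was lower, with a median of 1.92. Over all members, passing or not, 45 of 64 and 42 of 75 were at least 2-fold higher. In each list 1 was lower, and the medians were 1.53 and 1.31. Without the 4 passing genes of each list that were at 0 in all purple cells, the medians of passing genes were 1.94 and 1.73. Genes such as Cenpe and Pola1, at most 0.635 and 0.756 FPKM in purple cells, stayed in, though they too passed through blue cells alone. The sizes depended on low values and on single cells. With values under 10 FPKM set to 10 the medians were 0.59 for S phase and 0.49 for G2/M. Without mMSC5 the G2/M median was 1.16, and without mMSC6 the S phase median was 1.38.

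**Figure D1:**
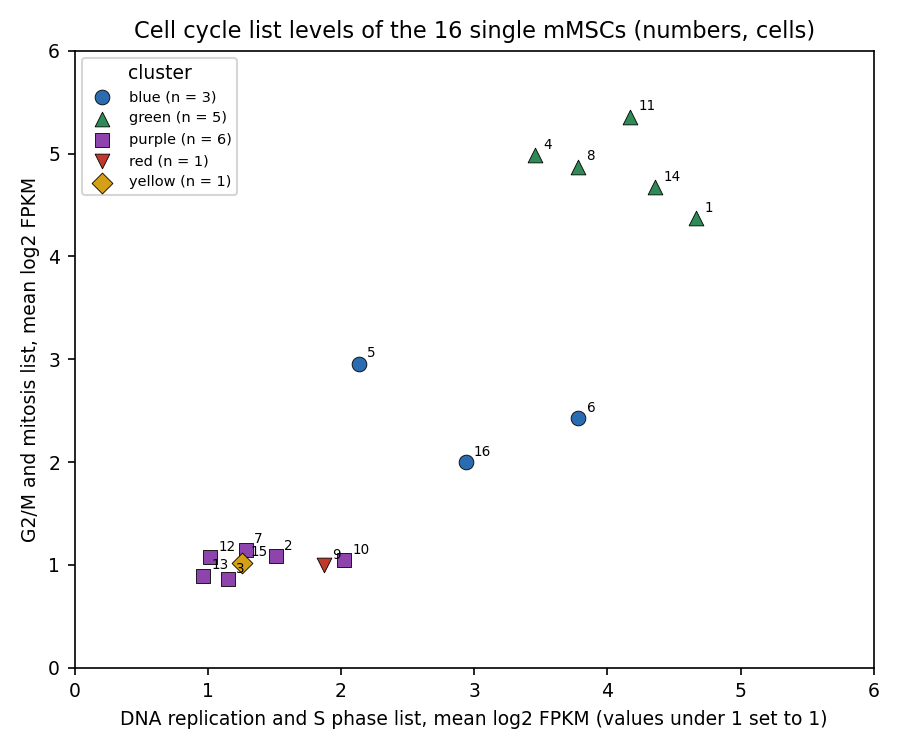
Mean log2 FPKM over the 64 genes of the DNA replication and S phase list (horizontal) and the 75 genes of the G2/M and mitosis list (vertical) in each of the 16 single mMSCs, with values under 1 FPKM set to 1. The 3 blue cells (circles) lie above all 6 purple cells (squares) on both axes and below all 5 green cells (triangles) on the vertical axis.

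The 3 blue cells differed among themselves in these levels. The mean log2 FPKM of the S phase list was 2.13 in mMSC5, 3.78 in mMSC6 and 2.94 in mMSC16, against 0.965 to 2.02 with a median of 1.22 in purple cells. That of the G2/M list was 2.96, 2.43 and 2.00, against 0.865 to 1.15 with a median of 1.06. So mMSC6 led in S phase genes and mMSC5 in G2/M genes, and mMSC5 lay close to the highest purple cell in S phase genes. Among the passing genes, mMSC6 was the highest blue cell for 29 of 48 S phase genes and mMSC5 for 5, while mMSC5 was the highest for 18 of 42 G2/M genes and mMSC6 for 13.

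Among the purple cells, mMSC10 had the most S phase genes. It had 39 of the 64 at 1 FPKM or more, against 40 in mMSC5 and 19 to 28 in the other purple cells. Its S phase level of 2.02 was the highest of the purple cells, though not far enough from the next (1.51 in mMSC2) to pass Dixon's ratio, while its G2/M level was within their range.

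Green cells were higher than blue cells for most of these genes. Their S phase level was 3.46 to 4.66 with a median of 4.17, which overlapped that of mMSC6, and their G2/M level was 4.37 to 5.36 with a median of 4.87, above every blue cell. The green mean was above the blue mean for 42 of 48 passing S phase genes and 41 of 42 G2/M genes. At 1 FPKM or more, green cells had 68 to 71 of the 75 G2/M genes, blue cells 42 to 52 and purple cells 18 to 27. Mki67, the proliferation antigen Ki-67, which was named after its values were seen, was at 1.79 FPKM in mMSC5, 0.825 in mMSC6 and 0 in mMSC16, at 0 in every purple cell and at 10.6 to 29.5 in green cells. Aurkb, a mitotic kinase named in the same way, was at 0 in all 9 blue and purple cells and at 14.1 to 97.9 FPKM in green cells.

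By role, the medians below are those of the genes that passed the filter, and the median over all members of the role follows. A gene under 1 FPKM in all purple cells passes only where all 3 blue cells are at 1 FPKM or more. The shares of all genes beside the role counts are 16.2% higher and 15.2% lower. Replication origins are licensed by loading the Mcm helicase, and 12 of 14 passing genes of this role were at least 2-fold higher in blue, with a median difference of 2.21 (1.45 over all 18 members). Gmnn (geminin), which blocks a further round of licensing, was not among the fixed members but had the largest difference of all genes without overlap. Its level was 34.1 FPKM in mMSC5, 89.6 in mMSC6 and 99.2 in mMSC16. Among purple cells it was 20.6 in mMSC10 and listed at 0 in the other 5, a difference of 5.34. Green cells had 82.9 to 182 FPKM.

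Gins1, a subunit of the GINS complex of the active helicase, was at 26.2, 63.0 and 18.8 FPKM in mMSC5, mMSC6 and mMSC16 and at 0 in all purple cells. Mcm2, a helicase subunit whose upstream sequence is printed above, was at 2.49, 59.2 and 2.49 FPKM, against 2.23 in mMSC10 and 0 in the other purple cells. The mMSC5 and mMSC16 levels of Mcm2 were thus just above that of mMSC10, and mMSC6 alone was high. Mcm3, another subunit, chosen after its values were seen, overlapped, with 10.3, 44.3 and 19.9 FPKM in blue cells and 20.9 in mMSC10.

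Primase and the DNA polymerases make the new strands, and the clamp with its loader holds polymerases on the DNA. Here 9 of 14 passing genes were at least 2-fold higher in blue, with a median of 1.94 (1.46 over all 22). Prim1, the catalytic primase subunit, was at 9.28, 232 and 16.1 FPKM in mMSC5, mMSC6 and mMSC16 and at 0 in all purple cells. Pola1, the catalytic subunit of polymerase alpha, was even across the blue cells at 4.04, 4.83 and 3.50 FPKM, and no purple cell was above 0.756. Pole2, a subunit of polymerase epsilon, was at 6.52, 7.68 and 9.27 FPKM, and its highest purple level was 4.37 in mMSC10.

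Rfc3, of the clamp loader, was likewise even, at 40.1, 42.2 and 44.9 FPKM against 0 to 17.3 with a median of 8.62 in purple cells. Its relative Rfc4, chosen after its values were seen, was uneven, at 4.91, 196 and 33.9 FPKM against 5.86 in mMSC3 and 0 in the other purple cells. The sliding clamp Pcna, chosen in the same way, was at 140, 355 and 186 FPKM against 27.2 to 161 with a median of 41.3, so that it overlapped at mMSC5 only.

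Newly copied DNA is packed with histones and its methylation restored, and 7 of 9 genes of this role were at least 2-fold higher, with a median of 2.29, and all members passed. Uhrf1, which brings the maintenance methyltransferase to the copied strand, was at 51.9, 137 and 124 FPKM in mMSC5, mMSC6 and mMSC16 against 0 to 23.7 with a median of 3.19 in purple cells, a difference of 4.86. Its highest purple cell was again mMSC10. Chaf1a, a histone chaperone of the replication fork, was at 4.31, 34.0 and 2.08 FPKM and at 0 in all purple cells.

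S phase control and repair had 7 of 11 passing genes at least 2-fold higher, with a median of 1.88 (1.20 over all 15). Rad51ap1, a gene of DNA repair, was at 9.07, 29.5 and 24.5 FPKM in blue cells and at 0 in all purple cells. Among 37 passing genes of nucleotide synthesis, by contrast, 9 were higher (24.3%, against 16.2% of all genes). In that list 8 were lower (21.6%, against 15.2%), with a median of 0.32. The exception without overlap was Rrm2, the ribonucleotide reductase subunit that is made in S phase, at 322, 569 and 449 FPKM against 11.5 to 253 with a median of 125, a difference of 2.31. Its partner Rrm1 overlapped, with 16, 93.7 and 8.80 FPKM against 0 to 18.5. Tyms, the thymidylate synthase, was at 7.16, 6.79 and 11.5 FPKM against 0 to 8.58, with mMSC10 again the highest purple cell.

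Cdk1 and its cyclins drive entry into mitosis, and 5 of 6 passing genes of this role were at least 2-fold higher, with a median of 1.91 (1.31 over all 15). Cdk1 was at 9.08, 53.2 and 22.1 FPKM in mMSC5, mMSC6 and mMSC16 against 0 to 6.06 with a median of 3.35 in purple and 74.5 to 182 in green cells. All 3 blue cells lay between the other clusters. Ccnb1 (cyclin B1) was at 15.6, 24.1 and 1.39 FPKM and at 0 in all purple cells, so that in mMSC16 it was close to the floor. Cks1b, a small subunit that binds Cdk1, was at 170, 105 and 76.2 FPKM against 18 to 72.6, above 0 in every cell.

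The related cyclins Ccnb2 and Ccna2, both chosen after their values were seen, overlapped. Ccnb2 was at 92.4 FPKM in mMSC5 and at 0 in the other 8 cells. Ccna2 was at 11.1, 10.9 and 2.99 FPKM in blue cells against 0.94 to 11.0 in purple cells, and the highest purple value fell just under mMSC5.

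Kinetochores tie chromosomes to the spindle, and 6 of 9 passing genes of this role were at least 2-fold higher, with a median of 1.91 (1.90 over all 15). Cenpe, the kinetochore motor, was at 46.8, 18 and 3.98 FPKM against at most 0.635 in purple cells, a difference of 3.90. Cenpi, of the inner kinetochore, was at 7.80, 41.1 and 21.8 FPKM against at most 1.45. Further inner kinetochore genes outside the list were among the genes of largest difference. Cenpn was at 49.3, 35.0 and 21.0 FPKM and Cenph at 13, 46.6 and 12.6, and both were at 0 in all purple cells. Spc25, an outer kinetochore subunit chosen after its values were seen, went the other way, with 19.6, 7.63 and 3.81 FPKM against 7.30 to 143 with a median of 19.5, a difference of -1.38.

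Of the chromosomal passenger complex and the genes of cytokinesis 6 of 13 members passed, 5 of them at least 2-fold higher, with a median of 3.06 (1.31 over all 13). Birc5 (survivin), a subunit of the complex, was at 83.2, 42.3 and 25.1 FPKM in mMSC5, mMSC6 and mMSC16 against 0 to 13 with a median of 1.03 in purple and 191 to 515 in green cells. Cdca8 (borealin) was at 4.53, 5.65 and 20.7 FPKM and Cep55, which acts in the final cut between daughter cells, at 24.9, 5.02 and 5.16, with both at 0 in all purple cells. The cell with the highest level was mMSC5 for Birc5 and Cep55 and mMSC16 for Cdca8.

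Among spindle genes 6 of 9 were at least 2-fold higher, with a median of 1.93 (1.70 over all 13). Tacc3, which stabilizes spindle microtubules, was at 52.4, 11.2 and 12.2 FPKM in blue cells and at 0 in all purple cells. Kif11, the motor that pushes the spindle poles apart, was at 1.85, 7.85 and 2.73 FPKM against at most 1.33 in purple and 29.2 to 33.5 in green cells. Condensin and topoisomerase genes had 4 of 6 higher with a median of 2.55 (0.48 over all 13) but none without overlap. Top2a, chosen after its values were seen, was at 20.5, 153 and 5.20 FPKM against 0 to 9.79. For 6 genes of mitotic exit and other functions the median was 0.19, with 1 higher.

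**Figure D2:**
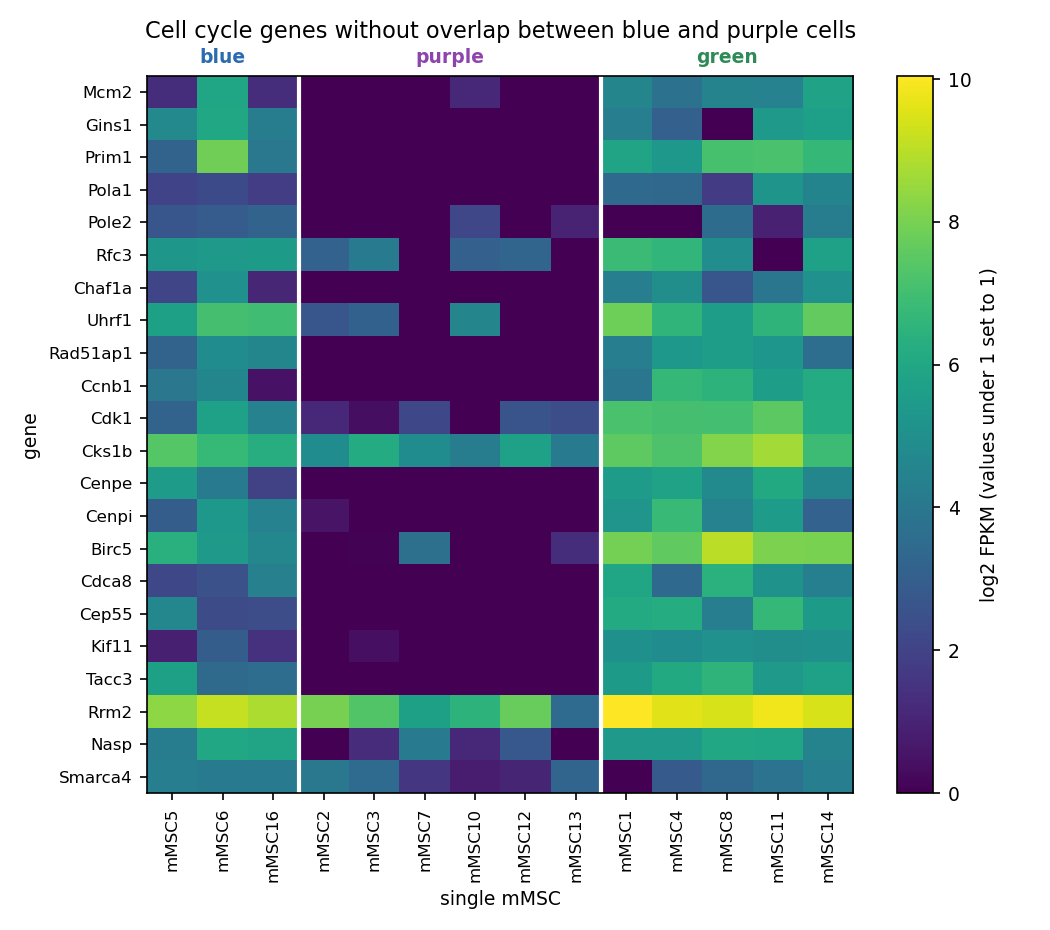
Log2 FPKM (color scale, values under 1 set to 1) of the 19 cell cycle genes without overlap, and of Rrm2, Nasp and Smarca4, in each blue, purple and green cell. Purple cells are at the floor for most rows, and green cells are at or above the lowest blue cell by their median for 18 of the 19 cell cycle genes.

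The 19 cell cycle genes without overlap were 9 of the 48 passing S phase and 10 of the 42 passing G2/M genes. Of all genes, 1.61% were higher in blue without overlap. For 11 of the 19 the green median was above the highest blue cell. For the whole set of 137 genes the green median reached the lowest blue cell in 54 and was at or below the highest purple cell in 70, so many of the other genes were not high in green cells.

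In the 250 bases before the start, an E2F-type stretch was found in 12 of 50 S phase genes with a RefSeq window (24.0%) and 3 of 61 G2/M genes (4.92%). Both lists were searched whole, whether or not a member passed the filter. Among passing genes of all kinds, 257 of 6167 held such a stretch (4.17%). A CCAAT box and a CHR together were found in 22 G2/M genes (36.1%), 6 S phase genes (12%) and 295 of all (4.78%). Of the 137 genes higher without overlap, 98 had a window, and 9 of these (9.18%) held an E2F-type stretch and 7 (7.14%) a CCAAT box with a CHR. Among these, 4 of the 18 cell cycle members (22.2%) held the first and 4 the second, while the 80 other genes with a window had 6.25% and 3.75%. Of the 80 lower genes, 59 had a window, with 2 (3.39%) and 3 (5.08%). A CCAAT box alone was common, in 41.0% of all. The letters describe the windows and say nothing of binding in these cells.

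Outside the cell cycle lists, 118 genes were higher without overlap. Anxa8, an annexin, was at 67.3, 42.2 and 11.3 FPKM in mMSC5, mMSC6 and mMSC16 against 10.9 in mMSC7 and 0 in the other purple cells. Bhlhb9 was at 53.1, 26.6 and 10.3 FPKM against at most 7.38. Among chromatin genes, 11 of 39 were at least 2-fold higher (28.2%, against 16.2% of all genes) and 3 lower (7.69%, against 15.2%), with a median of 0.34. Nasp, a chaperone of histone H1 and H3, was at 19.1, 63.5 and 58.5 FPKM against 0 to 17.3, and Smarca4, the BRG1 ATPase of chromatin remodelling, was even at 19.7, 17.5 and 17.1 against 1.76 to 16.3.

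Genes detected in all 9 cells also differed without overlap, by as much as 2.77 for Bcl10, and those named next differed less. Hsph1, a heat shock chaperone, was at 77.2, 57.9 and 106 FPKM against 10.6 to 52.8, a difference of 1.48. Sec22b, of vesicle transport from the endoplasmic reticulum, was at 79.0, 73.7 and 88.7 FPKM against 19.2 to 70.1. Of 76 respiratory chain genes 2 were at least 2-fold higher (2.63%, against 16.2% of all genes) and 0 lower (against 15.2%), with a median of 0.07. Those without overlap were Ndufb2 of complex I (311, 298 and 251 FPKM against 38.6 to 248) and Atp5a1 of the ATP synthase (150, 185 and 244 against 63.4 to 142).

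Of the 80 genes that were lower in blue without overlap, 11 were in any list. None was in a cell cycle list, where 90 genes passed, a count that the background of 0.938% makes uninformative. As above, the 80 genes are not read as more than the order of the cells alone gives. The largest difference was that of Ebf1, a transcription factor of B cells that stromal cells and adipocyte precursors also use. It was at 3.14 FPKM in mMSC5 and 0 in mMSC6 and mMSC16, against 30.7 to 145 with a median of 44.3 in purple and 51.8 to 140 in green cells, a difference of -5.12. Green and purple cells were thus alike in range for Ebf1 and the blue cells stood below both.

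Pus1, a pseudouridine synthase, was at 0 in all 3 blue cells, 9.68 to 79.0 FPKM in purple and 45.6 to 84.0 in green cells. Arpc3, of the actin branching complex Arp2/3, was at 0 in blue cells and 13.7 to 63.9 in purple cells, but at 0 in most green cells too, with a highest green value of 17.7. Tomm40, the pore of protein import into mitochondria, was at 0 in blue cells and 8.74 to 59.4 in purple cells.

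Other genes of the lowest 12 were above 0 in some blue cells. Slc39a13, a zinc transporter, was at 0, 5.32 and 7.32 FPKM in mMSC5, mMSC6 and mMSC16 against 35.4 to 219 in purple cells, a difference of -4.18. Acadvl, which starts the oxidation of long fatty acids, was at 10.1, 0 and 0 FPKM against 14.3 to 53.4. Wdr55 was at 0 in mMSC5 and mMSC6, but its 25.9 FPKM in mMSC16 lay just under the lowest purple value of 26.6.

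**Figure D3:**
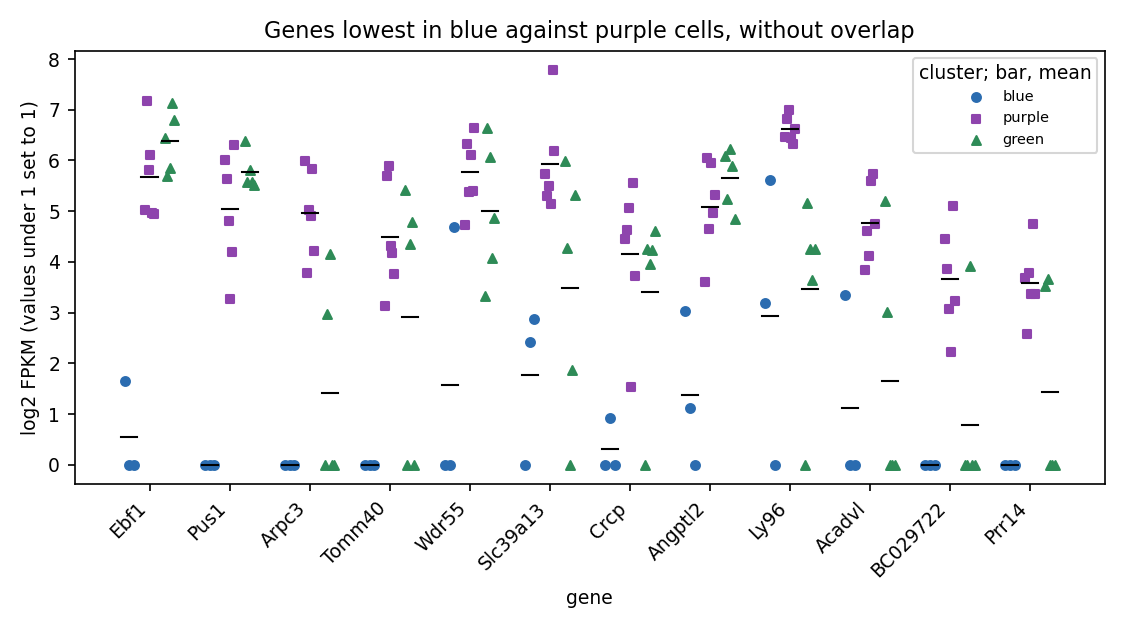
Log2 FPKM (values under 1 set to 1) of the 12 genes with the lowest blue minus purple difference among those without overlap, with 1 point per cell and a bar at each cluster's mean. Blue cells (circles) lie below all purple cells (squares) in every gene, while green cells (triangles) lie with purple cells for Ebf1, Pus1 and Angptl2 and spread down to the floor for most others.

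Members of the growth and paracrine factor and matrix lists were among the lower genes. Angptl2, an angiopoietin-like factor, was at 8.16, 2.16 and 0 FPKM in mMSC5, mMSC6 and mMSC16 against 12.1 to 66.2 with a median of 35.7, a difference of -3.71. Grn, the growth factor progranulin, was at 30.7, 19.7 and 24.6 FPKM against 45.2 to 234, above 0 in every cell. Timp3, an inhibitor of matrix metalloproteinases, was at 191, 450 and 279 FPKM against 484 to 909, and its green values of 69.1 to 264 overlapped those of blue cells. Of the 39 passing growth and paracrine factors, 7 were higher (17.9%) and 9 lower (23.1%), near the shares of all genes, with a median of -0.42.

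Ly96, the MD-2 partner of the endotoxin receptor, was at 9.09, 49.0 and 0 FPKM in blue cells against 80.1 to 127 in purple and 0 to 35.7 in green cells. Among interferon response genes, 5 of 37 were at least 2-fold higher (13.5%, against 16.2% of all genes) and 1 lower (2.70%, against 15.2%), with a median of 0.18. Irf7, a transcription factor of that response, was lower without overlap at 97.5, 124 and 43.7 FPKM against 134 to 337, and Ifitm3, a membrane protein of antiviral defence, at 3122, 3278 and 2985 against 3285 to 5928. Rsad2 (viperin) was higher but overlapped, at 193, 191 and 104 FPKM against 3.36 to 154.

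Chemokine, cytokine and NF-kB genes had 7 of 23 higher (30.4%, against 16.2% of all genes) and 3 lower (the share of all genes being 15.2%), with a median of 0.54. Nfkb2, an NF-kB subunit, was higher without overlap at 12.5, 16.3 and 14 FPKM against 0 to 4.82. Il6, the cytokine interleukin 6, was at 145 and 163 FPKM in mMSC5 and mMSC6 and 0 in mMSC16, against 0 to 63.0 in purple cells. Cxcl10, an interferon-induced chemokine, was at 641, 1589 and 25.9 FPKM against 0 to 1076. For Il6, mMSC5 and mMSC6 were thus above every purple cell and mMSC16 was at 0. For Cxcl10, mMSC6 alone was above the purple range.

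The list of CDK inhibitors, p53 targets and D cyclins holds genes that brake the cell cycle and, with the D cyclins, genes that advance it through G1. Of 25 passing genes, 2 were at least 2-fold higher (8%, against 16.2% of all genes) and 3 lower (12%, against 15.2%), with a median of -0.10. Gadd45g, a stress-induced inhibitor of growth, was lower without overlap at 341, 255 and 283 FPKM against 523 to 1962 with a median of 788. Cdkn1a, the inhibitor p21, was at 40.7, 88.2 and 39.8 FPKM against 24.0 to 60.4, and Cdkn1b, the inhibitor p27, at 1.48, 10.9 and 9.94 against 0 to 9. Both of these, chosen after their values were seen, overlapped.

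None of 16 passing collagens was past 2-fold in either direction (median -0.11), nor were 74 of 77 cytoplasmic ribosomal protein genes (median -0.04). Of all genes, 16.2% were at least 2-fold higher and 15.2% lower. Rpl26 was the ribosomal gene with a difference of 6.36, at 591, 357 and 1366 FPKM against 0.178 to 818. Ribosomal protein genes have many processed copies in the genome among which reads can be split. The Rpl26 values are therefore taken as uncertain, and whether reads were split here was not tested. Rpl10 was lower without overlap at 1796, 1336 and 1570 FPKM against 1860 to 2499, with the same reservation.

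The study assembled lists of published markers for lineages and functions, and set them against the same libraries. The shares of all genes beside these counts are 16.2% higher and 15.2% lower. In its vascular smooth muscle list 1 of 12 passing genes was at least 2-fold higher and 4 were lower (median -0.54), in its multipotency list 2 of 25 were higher and 6 lower (-0.19), and in its osteogenic list 1 of 16 higher and 4 lower (-0.12). In its adipogenic list 2 of 10 were higher and 1 lower, in its neurogenic list 2 of 6 and 0, in its chondrogenic list 0 of 5 and 0, and in its immunomodulatory list 2 of 5 and 1. Cd81, a tetraspanin of the multipotency list, was lower without overlap at 181, 131 and 71.4 FPKM against 210 to 368. Pdgfra, a receptor that marks mesenchymal cells, was at 9.48, 1.24 and 0 FPKM against 1.16 to 29.5, and Alpl, the alkaline phosphatase of bone-forming cells, was at 0 in all 3 blue cells and at 0 to 29.9 in purple cells. Acta2, the smooth muscle actin, and Tagln, an actin-binding protein of the same cells, both chosen after their values were seen, spread widely within each cluster. Acta2 was at 316, 297 and 1356 FPKM against 122 to 1933, and Tagln at 62.8, 8.85 and 511 against 3.45 to 286. Myl9, a light chain of smooth muscle myosin, was at 0, 30.1 and 1069 FPKM against 28.2 to 618, and its difference of -2.57 became 0.40 with means taken on the linear scale.

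**Figure D4:**
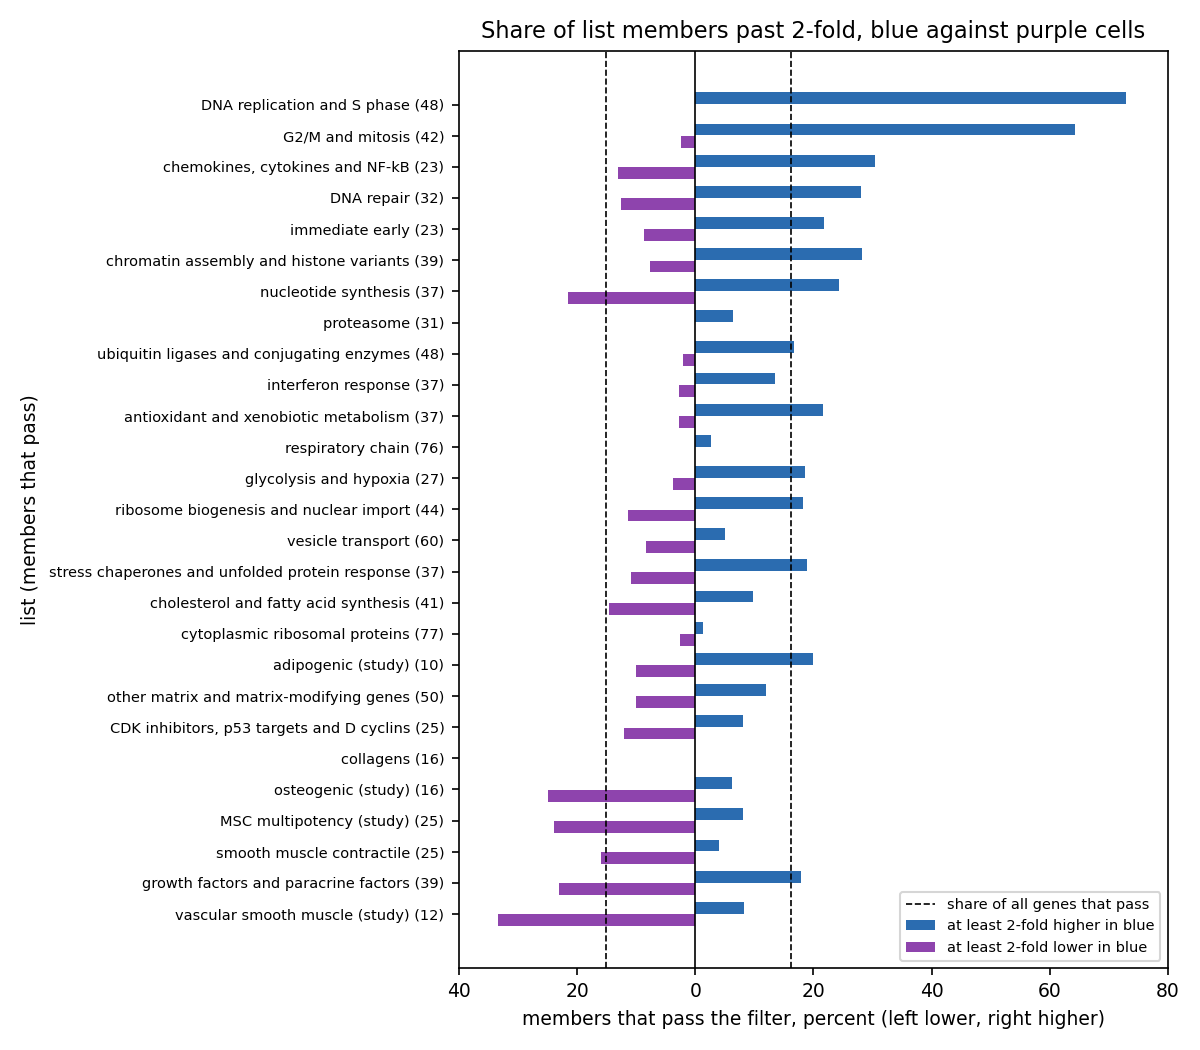
Percent of passing list members that were at least 2-fold higher (bars to the right) or lower (bars to the left) in blue cells, for the 27 lists with at least 10 passing members, marker lists left out. Dashed lines mark the shares of all genes, 16.2% and 15.2%, and the bars of the cell cycle lists (72.9% and 64.3%) reach furthest.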

How the data were processed

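Single-cell RNA-seq was analysed in 3 blue and 6 purple mMSCs, with 5 green mMSCs for comparison. The authors deposited 1 table of FPKM values per gene and library, which they made by aligning reads to mm10 with TopHat2 2.0.12 and estimating abundance with Cufflinks 2.2.1, as the submitters' processing notes name them. FPKM hold no counts, so no count model was used, and the reads behind a single value were not estimated. Clusters were taken from the study.

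Symbols starting Mir or Snor were left out, values under 1 FPKM were set to 1, and a gene was kept where no fewer than 3 of the 9 cells had 1 FPKM or more. The difference is that of mean log2 FPKM, and a list is described by its median and by its genes past 2-fold. No test was made, since the clusters rest on the same values and each is 1 culture. The members and lists were chosen with earlier results of these data known.

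Genes named are the 12 with the largest and the 12 with the lowest difference among those without overlap (symbols of Gm with digits or ending in Rik left out), list members without overlap, for lists with fewer than 3 such members those with the largest absolute differences up to 4 in all, and markers. Others are marked in the text as picked with values known, or stand just outside the no-overlap rule (Rab36 and Zgpat). Alternatives changed the log scale, floor, filter, scaling, summary and cells, and 2 (a filter on 7 other mMSCs and a scaling without Mir and Snor symbols) were added after the data were seen. The calculation of differences was checked on deposited values shuffled among cells, with known fold changes put in. Such a check covers the arithmetic and not the effect of low values or of the filter. Promoter windows come from RefSeq (GRCm38.p6), matched by symbol for 6167 of 8525 genes. Python 3.11.15, numpy 2.4.6, pandas 2.3.3 and matplotlib 3.10.9 were used.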

Additional observations from a re-analysis of the deposited data

Results flagged for a closer look

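Among the 6 purple cells, 1 cell lay far from the others for 30 of 157 genes looked at, by Dixon's ratio at its 95% critical value, and for 0 of 30 list levels. Chance flags about 1 in 20 groups, and a gene with 5 purple cells at the floor and 1 above it is flagged by construction. In 21 of the 30 the distant cell was the highest. In mMSC10 these were Gmnn (20.6 FPKM), Mcm2 (2.23), Tyms (8.58) and Mmp19 (16.2). In mMSC7 they were Birc5 (13 FPKM), Anxa8 (10.9), Ccl9 (2.44), Egr2 (8.57), Pdk1 (7.62), Gsta4 (44.2) and Cd34 (2.91). In mMSC3 they were Kif11 (1.33 FPKM), Mthfd1 (2.94), Hmga1 (111), Pmaip1 (2.71), Eno2 (2.71) and Rfc4 (5.86). In mMSC2 they were Cenpi (1.45 FPKM), Gadd45g (1962) and Top2a (9.79), and in mMSC12 Bhlhb9 (7.38 FPKM).

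In the other 9 the distant cell was the lowest. In mMSC3 these were Dusp6 (0 FPKM), Eno1 (0.0351), Ndufa3 (0) and Rpl30 (0.0411), and in mMSC12 they were Canx (0 FPKM) and Tfrc (1.70). In mMSC7 they were Atp5a1 (63.4 FPKM) and Oasl1 (0), and in mMSC13 Tubb3 (0 FPKM). The groups of 3 blue cells are too small for this rule.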

How the results depend on the processing

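Every alternative kept the sign of both cell cycle medians. Against main values of 1381 higher and 1299 lower genes, 137 and 80 without overlap, and medians of 2.02 (S phase) and 1.92 (G2/M), values under 10 FPKM set to 10 gave 275, 231, 72, 49, 0.59 and 0.49. A filter of 10 FPKM in at least 3 cells gave 816 and 813 genes, 72 higher without overlap and a G2/M median of 0.90. The G2/M median was 1.58 with a filter of 1 FPKM in at least 1 cell, 1.51 with a filter on the 7 other mMSCs and 2.37 with linear means. Rescaling to equal sums gave 652, 2581, 43 and 285 genes and medians of 1.41 and 1.41, against -0.56 over all genes. A 4-fold limit gave 351 and 301 genes, and a 2-fold gap between nearest cells 40 and 13. Leaving out 1 cell at a time gave 1351 to 1587 higher and 1269 to 1591 lower genes, 167 to 337 and 109 to 209 without overlap, and medians of 1.38 to 2.35 and 1.16 to 2.04. Fewer cells loosen the no-overlap rule by construction.

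Of 2940 alternative values of 154 named genes, 31 had another sign than the main value, 6 of them with equal sums, and 6 of the 31 belonged to differences past 2-fold. Canx went from 1.60 to -0.013 with medians over cells and -0.10 without mMSC12, Myl9 from -2.57 to 0.40 with linear means, and on leaving out 1 cell at a time Wisp2 (-1.93) ran from -3.31 to 0.12, Cnn1 (-1.27) from -2.68 to 0.13 and Rpl30 (-2.02) from -3.64 to 0.075. These changed sign without mMSC5, mMSC5 and mMSC6 in turn. The causes were not tested. No paired analysis was possible because the numbers of the cells only name them and pair no cells across clusters. Depth limits low values, and its effect on them was not estimated.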

Other observations

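The shares of all genes that were 2-fold higher and lower in blue, 16.2% and 15.2%, stand beside each count that follows. In DNA repair 9 of 32 passing genes were at least 2-fold higher in blue and 4 lower (median 0.53). Xrcc5, the Ku80 subunit that binds broken DNA ends, was at 14.8, 50.5 and 0 FPKM in mMSC5, mMSC6 and mMSC16 against 0 to 4.21 in purple cells, and Atm, a kinase of the break response, at 17.1, 23.1 and 0 against 0 to 7.21. In both genes the values of mMSC16 were at 0 and those of the other blue cells above every purple cell. Of 44 passing genes of ribosome biogenesis and nuclear import, 8 were higher and 5 lower (median 0.07). Nup43, of the nuclear pore, was at 40.4, 26.5 and 23.3 FPKM against 44.4 in mMSC10 and 0 as the purple median, while Bop1, of the large subunit's assembly, was at 8.01, 0 and 0 against 0 to 118. Of 31 passing proteasome genes 2 were higher and 0 lower (median 0.19), and Psmd13 was at 54.2, 43.9 and 19.6 FPKM against 0 to 34.0. In ubiquitin ligases and conjugating enzymes 8 of 48 were higher and 1 lower (median 0.19), and Anapc2, of the anaphase-promoting complex, was at 0, 5.57 and 0 FPKM against 1.86 to 48.2.

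Of 41 passing genes of cholesterol and fatty acid synthesis, 4 were higher and 6 lower (median 0.02). Mvk (mevalonate kinase) was at 0 in all 3 blue cells and at 0 to 54.9 FPKM in purple cells, and Acly, which makes cytosolic acetyl-CoA, was at 4.17, 0 and 14.3 against 10.1 to 35.3. Antioxidant and xenobiotic genes had 8 of 37 higher and 1 lower (median 0.15). The metallothionein Mt2 was at 111, 232 and 214 FPKM against 0 to 388, and Hmox1 (heme oxygenase 1) was the lower one, at 56.2, 47.7 and 8.28 against 51.7 to 585. In glycolysis and hypoxia 5 of 27 were higher and 1 lower (median 0.07), in stress chaperones 7 of 37 and 4 (median 0.04), in vesicle transport 3 of 60 and 5 (median 0.06), in immediate early genes 5 of 23 and 2 (median 0.45) and in smooth muscle contractile genes 1 of 25 and 4 (median -0.28). Matrix genes other than collagens had 6 of 50 higher and 5 lower (median -0.06). Mgp, an inhibitor of calcification, was at 219, 22.5 and 1468 FPKM against 0 to 87.9, and Fbn1 (fibrillin 1) was even at 14.1, 17.3 and 18.1 against 0 to 16.3. Gdf15, a stress-induced factor of the growth factor list, was at 0 in all 3 blue cells and all 5 green cells and at 0 to 41.6 FPKM in purple cells. Cd34, a progenitor antigen, was at 52.8 FPKM in mMSC5, 1.30 in mMSC6 and 6.83 in mMSC16 against 2.91 in mMSC7 and 0 in the other purple cells.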
